A study of Mus musculus with 6 samples.

Results

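*Pitx1*, *Pitx3*, *Tbx3*, *Tbx15*, *Lbx1*, *Meox1*, *Meox2*, *Msx1* and *Msx2* encode transcription factors that pattern the embryo and its limb and muscle precursors. They are 9 of the 54525 genes listed in RNA-seq counts of C2C12 cells, taken by their gene symbols and compared between myoblasts and myotubes. C2C12 is an established mouse myoblast line, wild type (WT) by its labels, whose cells stop dividing, fuse and become multinucleated myotubes when the serum in their medium is reduced. Total RNA was sequenced from 3 cultures of myoblasts (day 0, D0) and 3 cultures after 5 days of differentiation (D5), with no treatment listed for either group. By the paper's methods, myoblasts grew with fetal bovine serum and were differentiated with less serum, from horse. Effects of the day and of the medium therefore cannot be told apart. Both groups carry the same genotype and come from the same immortalized line, and the labels call the cells of both groups myoblasts.

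These factors belong to 2 kinds of DNA-binding protein. Pitx, Lbx, Meox and Msx proteins carry a homeodomain, a fold of helices that reads short AT-rich sites, whereas Tbx proteins carry a T-box domain. In the embryo, Pitx genes act in limb and muscle specification, Meox genes in the somites from which trunk and limb muscle arises, and Lbx1 in the precursors that migrate from the somite into the limb. Msx1 and Msx2 are targets of bone morphogenetic protein (BMP) signalling and are known for holding progenitor cells, myoblasts included, in a dividing state. Tbx3 acts as a repressor in the limb and other organs, and Tbx15 is known for its roles in the skeleton, in glycolytic muscle fibres and in adipose tissue.

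The homeodomain genes can be told apart by the end of their homeobox, the coding stretch of the homeodomain. The 60 bases of homeodomain codons 41 to 60 are shown for a gene each of the Pitx, Lbx and Msx families, since they hold codon 50, the residue that sets which bases next to the core site are preferred. They were read 5′ to 3′ on the coding strand from GENCODE transcripts of GRCm38, and capitals mark codon 50:

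*Pitx3*: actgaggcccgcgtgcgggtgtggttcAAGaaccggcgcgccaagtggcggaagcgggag
*Lbx1*: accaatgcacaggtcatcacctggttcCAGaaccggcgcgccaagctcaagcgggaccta
*Msx2*: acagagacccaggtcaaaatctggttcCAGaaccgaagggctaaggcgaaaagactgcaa

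*Pitx3* had the lysine codon AAG there, and *Lbx1* and *Msx2* had the glutamine codon CAG. Over the whole homeobox of 180 bases, *Msx1* and *Msx2* were identical at 148 bases (82.2%) and *Meox1* and *Meox2* at 138 bases (76.7%). *Pitx3* and *Msx2*, of different families, were identical at 99 bases (55%). The stretches of *Lbx1* (chr19:45234031-45234090) and *Msx2* (chr13:53468370-53468429) lie within exon 2 of 2 on the minus strand, and that of *Pitx3* crosses the junction of exons 3 and 4 of 4.

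Reads of near-identical genes can be split between them, so the transcripts of the 9 genes were searched for 50-base stretches that also occur in another gene. *Tbx15*, *Pitx3*, *Lbx1*, *Meox1*, *Meox2* and *Msx1* had none. *Tbx3* shared 1.01% of its stretches with the antisense gene *Tbx3os1*, *Pitx1* shared 6.79% with a pair of overlapping non-coding genes, and *Msx2* shared 0.465% with 269 genes.

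The D0 libraries held from 36555048 to 40895840 counts on genes and the D5 libraries from 25449759 to 25811300. Levels are in CPM, the counts of a gene per 1000000 counts on all genes after scaling with edgeR's trimmed mean of M-values (TMM), for n = 3 cultures in each group, with the SD over cultures. A gene was tested where it passed edgeR's filter on low counts, with edgeR's quasi-likelihood test and Benjamini-Hochberg adjustment over the 16290 genes tested, and called where the adjusted p was under 0.05. An exact two-sided permutation test of 3 cultures against 3 cannot go below 0.1, so single genes were tested with the model only. The cultures at D5 had the profile of differentiated muscle: the 6 myotube markers *Myog*, *Mymk*, *Myh3*, *Ckm*, *Tnnt3* and *Actn2* rose, from a sum of 37.5 to 46.1 CPM per library at D0 to 8715 to 9241 CPM at D5, and the 4 proliferation markers *Mki67*, *Top2a*, *Ccnb1* and *Cdk1* fell, from 1547 to 1564 CPM to 47.4 to 55.8 CPM. Fewer cells that express a gene and less of its RNA per cell cannot be told apart in RNA from whole cultures.

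Of the 9 developmental factors, 5 passed the filter. *Tbx3* and *Tbx15* rose, *Msx1* and *Msx2* fell, and *Lbx1* was not called. Most genes of this comparison changed: 82.9% of all genes tested were called, of which 42.2% of the genes tested were higher at D5 and 40.8% lower, so that 4 calls among 5 factors is near the share over all genes. The same 4 factors were the ones tested without overlap of their CPM ranges between groups, which held in the higher direction for 42.2% and in the lower direction for 41.1% of all genes tested. *Pitx3* and *Meox1* had counts but were under the filter, and *Pitx1* and *Meox2* had 0 counts in all 6 libraries.

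**Figure D1:**
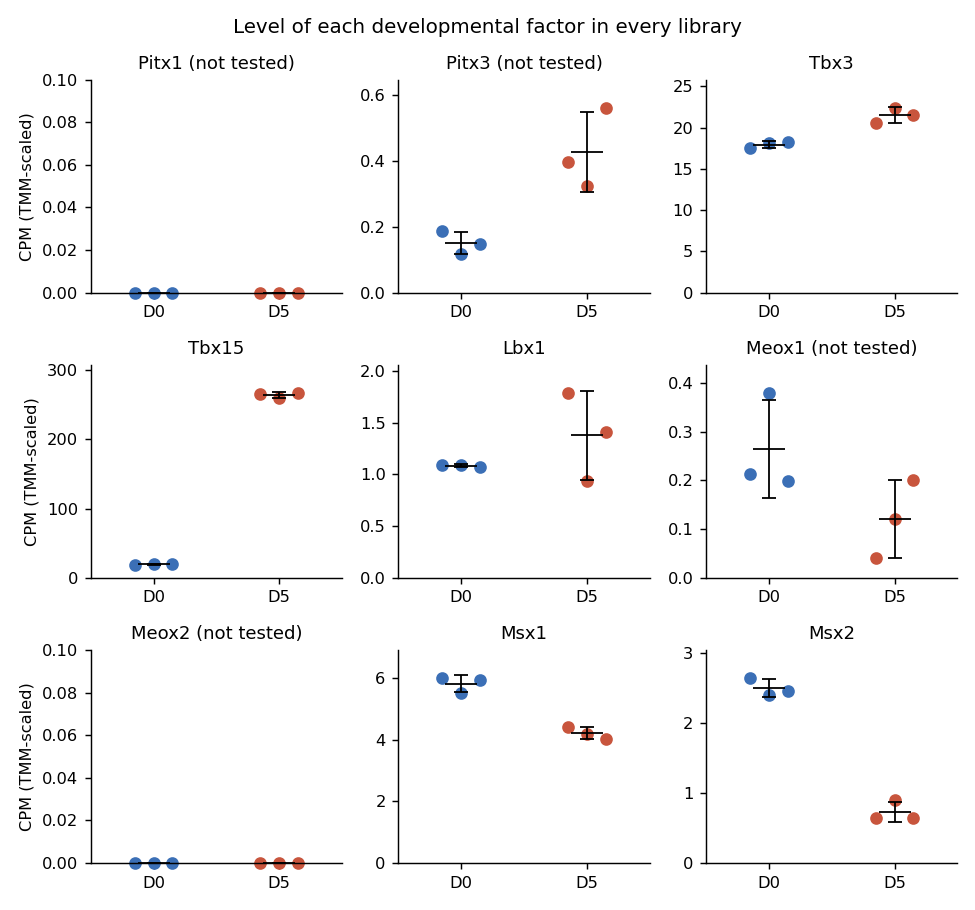
CPM of the 9 factors in each library at D0 (blue) and D5 (red), with a separate linear axis for each gene, a horizontal line at the mean and bars of 1 SD (n = 3 cultures). *Tbx15* stands near 20 CPM in the D0 libraries and near 264 CPM in the D5 libraries, the *Lbx1* and *Meox1* groups overlap, and *Pitx1* and *Meox2* are at 0.

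*Tbx15* (ENSMUSG00000027868.11, chr3:99240381-99354259, plus strand) showed the largest change of the 5 tested factors. At D0 it had 711, 834 and 824 counts and at D5 6664, 6396 and 6656 counts (replicates 1, 2 and 3, the order used throughout), which is 19.0, 19.8 and 20.4 CPM against 265, 259 and 267 CPM. The replicates of each group lay close together, and no D0 library came near a D5 library. The mean rose from 19.7 ± 0.744 CPM to 264 ± 4.12 CPM, a 13.4-fold difference with a log2 fold change of 3.74 (standard error 0.04, 95% interval 3.66 to 3.82, adjusted p = 4.1e-35 by edgeR's quasi-likelihood test). Of the 16290 genes tested, 951 had a log2 fold change at least this high.

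*Tbx3* (ENSMUSG00000018604.18, chr5:119670669-119684724, plus strand) rose far less. Its counts were 656, 762 and 734 at D0 and 515, 553 and 536 at D5, or 17.5, 18.1 and 18.2 CPM against 20.5, 22.4 and 21.5 CPM. Every D5 library was above every D0 library, by a margin of the order of the spread within the D5 group. The mean went from 17.9 ± 0.386 CPM to 21.5 ± 0.968 CPM, a 1.20-fold difference with a log2 fold change of 0.26 (standard error 0.06, 95% interval 0.14 to 0.37, adjusted p = 0.00013 by edgeR's quasi-likelihood test). The log2 fold change was 0.27 with DESeq2's size factors, 0.24 with upper-quartile normalization and 0.17 with total counts per library. It was −0.42 in unscaled counts, which keep the greater depth of the D0 libraries (adjusted p = 4.8e-07 by edgeR's test). Scaling to ERCC spike-ins, synthetic RNAs added to each sample, gave −0.30 (adjusted p = 0.684 by edgeR's test). Unscaled counts and ERCC scaling moved the median of all genes tested to −0.68 and −0.58 from 0.0022 with TMM. Relative to those medians *Tbx3* was at 0.26 and 0.28. The antisense gene *Tbx3os1*, which shares 1.74% of the exonic bases of *Tbx3* on the opposite strand, had 1, 2 and 1 counts at D0 and 8, 4 and 6 counts at D5.

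Some genes listed as fibro-adipogenic or tendon markers moved in the direction of *Tbx15* in these cultures of a myoblast line. *Pdgfra*, a growth factor receptor of mesenchymal cells, rose from 1.04 ± 0.151 to 23.9 ± 1.77 CPM (log2 fold change 4.52), and *Cd34*, a surface sialomucin, rose from 2.15 ± 0.107 to 49.7 ± 3.00 CPM (log2 fold change 4.53), both with 3 of 3 D5 libraries above the D0 libraries. Of the other fibro-adipogenic markers, *Twist2* had a log2 fold change of 0.35 that turned to −0.33 unscaled and −0.24 under ERCC scaling, *Ly6a* was not called (log2 fold change −0.07, adjusted p = 0.217 by edgeR's quasi-likelihood test) and *Dpp4* had 0 counts at D0 and 9, 6 and 3 at D5. Summed over the list of 5, of which 3 of 4 tested were higher, these markers held from 41.4 to 45.1 CPM per library at D0 and from 108 to 118 CPM at D5. The tendon list (*Scx*, *Mkx* and *Tnmd*), with 2 of 2 tested genes higher, went from 87.5 to 89.1 CPM to 209 to 218 CPM, of which *Scx* held most and lost its call under ERCC scaling, and its defining marker *Tnmd* had at most 3 counts in a library. Whether any such cells were present in the cultures was not tested, nor was a link between these genes and the level of *Tbx15*.

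The T-box genes share their DNA-binding domain, and the nearest relative of *Tbx15* is *Tbx18*. The following 60 bases of their T-box coding sequence are shown because both genes are among the most abundant T-box genes at D5. They were read from GENCODE transcripts of GRCm38 and run across exons 3 and 4 of 8 in both genes. The window was centred on the longest run of identical bases in the coding sequences of the pair. It is thus a closely matching stretch by choice and does not measure how similar the whole genes are. Capitals mark the 6 bases that differ:

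*Tbx15*: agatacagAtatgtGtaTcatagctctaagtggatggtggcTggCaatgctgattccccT
*Tbx18*: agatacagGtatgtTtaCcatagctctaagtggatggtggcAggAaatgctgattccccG

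The longest run of identical bases here was 23, and no 50-base stretch of *Tbx15* occurred in *Tbx18* or in any other gene.

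*Tbx18* (chr9:87702800-87731260, minus strand) rose from 22.8 ± 0.498 to 37.9 ± 2.38 CPM, a log2 fold change of 0.73 (adjusted p = 5.0e-14 by edgeR's quasi-likelihood test), and it was at 0.05 unscaled and at 0.18 under ERCC scaling, called in neither. Of its exonic bases, 20.6% overlap a gene on the opposite strand. *Tbx1*, a regulator of pharyngeal and craniofacial muscle, rose from 4.03 ± 0.121 to 14.8 ± 1.05 CPM, a log2 fold change of 1.88 (adjusted p = 1.3e-18 by the same test). *Tbx4*, the hindlimb T-box gene, rose from 0.152 ± 0.0531 to 0.749 ± 0.0765 CPM, a log2 fold change of 2.29 from no more than 21 counts in a library. *Mga*, a large protein with both a T-box and a MAX-binding domain, rose from 92.9 ± 3.50 to 113 ± 2.84 CPM, a log2 fold change of 0.29 that turned to −0.40 unscaled and to −0.28 under ERCC scaling.

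Other T-box genes went the opposite way from *Tbx15* or had next to no counts. *Tbx2*, the closest paralog of *Tbx3*, fell from 1.32 ± 0.0840 to 0.563 ± 0.0835 CPM, a log2 fold change of −1.22 (adjusted p = 3.6e-05 by edgeR's quasi-likelihood test). *Tbr1*, a factor of cortical neurons, fell from 0.682 ± 0.164 to 0.254 ± 0.0465 CPM, a log2 fold change of −1.41. *Tbx6*, a factor of the presomitic mesoderm, was not called (log2 fold change 0.68, adjusted p = 0.0553 by the same test). *Tbx5*, the forelimb gene, *Tbx10*, *Tbx21* and *Tbx22* were at 0 counts in every library.

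Levels of different genes can be compared only per length, as TPM (counts per exonic length, scaled to the same total of 1000000 in every library). On this scale the T-box genes summed to 71.9 TPM at D0 and 292 TPM at D5. At D0, *Mga* held 29.1 ± 0.754% of that sum, *Tbx15* 25.3 ± 0.641%, *Tbx18* 23.3 ± 0.826% and *Tbx3* 13.0 ± 0.107%. At D5, *Tbx15* alone held 74.8 ± 0.769%, followed by *Tbx18* with 8.54 ± 0.527%, *Mga* with 7.85 ± 0.269%, *Tbx1* with 4.48 ± 0.279% and *Tbx3* with 3.45 ± 0.162%. The share of *Tbx3* thus went down while its level per length was 9.37 ± 0.344 TPM at D0 and 10.1 ± 0.261 TPM at D5, since the sum it is taken from was higher.

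**Figure D2:**
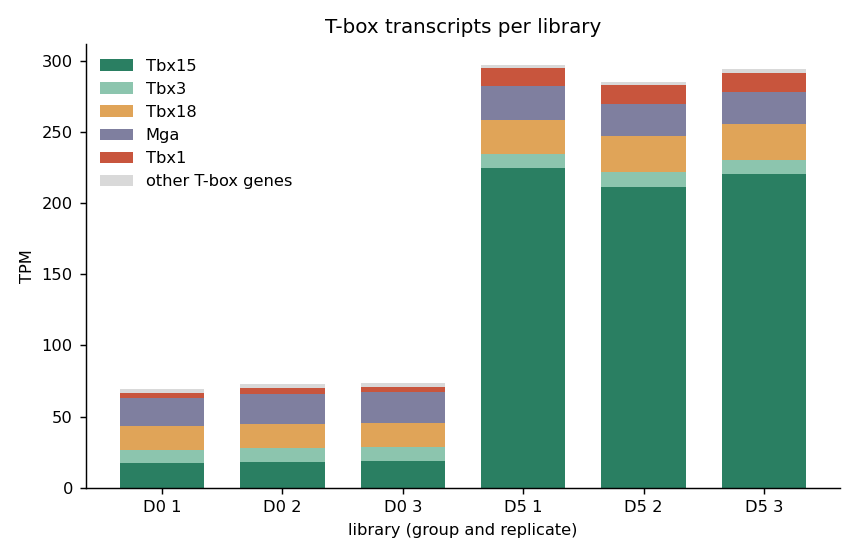
TPM of the T-box genes in each of the 6 libraries, stacked by gene on a linear axis from 0. The D0 libraries sum to near 72 TPM with no gene above 29.9% of the sum, and the D5 libraries sum to near 292 TPM, most of it *Tbx15*.

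*Msx1* (ENSMUSG00000048450.10, chr5:37820485-37824583, minus strand) fell moderately. Its counts were 225, 232 and 239 at D0 and 111, 103 and 100 at D5, or 6.0, 5.51 and 5.93 CPM against 4.42, 4.18 and 4.02 CPM. All D5 libraries were below all D0 libraries. The mean went from 5.82 ± 0.263 CPM to 4.20 ± 0.201 CPM, 72.3% of the D0 level, with a log2 fold change of −0.47 (standard error 0.11, 95% interval −0.68 to −0.25, adjusted p = 0.00022 by edgeR's quasi-likelihood test). Under ERCC scaling the value was −1.04 and the call was lost (adjusted p = 0.115 by edgeR's test).

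*Msx2* (ENSMUSG00000021469.9, chr13:53466884-53473074, minus strand) fell further. It had 99, 101 and 99 counts at D0 and 16, 22 and 16 counts at D5, or 2.64, 2.40 and 2.46 CPM against 0.637, 0.892 and 0.643 CPM. The highest D5 library was at less than the lowest D0 library by a wide gap. The mean went from 2.50 ± 0.126 CPM to 0.724 ± 0.146 CPM, 29.0% of the D0 level, with a log2 fold change of −1.78 (standard error 0.20, 95% interval −2.20 to −1.37, adjusted p = 2.7e-09 by edgeR's quasi-likelihood test). A log2 fold change at least this low was found for 1190 of the 16290 genes tested.

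The 95% intervals of the paralogs *Msx1* and *Msx2* did not overlap, although the difference between the pair was not tested itself. Per length, *Msx2* held 29.4%, 29.1% and 28.1% of the Msx transcripts at D0 and 11.6%, 16.8% and 13.1% at D5. The share of *Msx1* was 71.1 ± 0.659% at D0 and 85.1 ± 1.84% at D5. *Msx3*, which is known from the dorsal neural tube, had 3 counts in D5 replicate 1 and 0 in the other libraries.

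The 250 bases before the transcription start of *Msx1* are shown as its upstream sequence. They were taken from RefSeq (GRCm38.p6), and the window, chr5:37824586-37824835, is printed 5′ to 3′ on the minus strand. Capitals mark the E-box, CANNTG, the motif bound by myogenic and other basic helix-loop-helix factors:

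*Msx1*: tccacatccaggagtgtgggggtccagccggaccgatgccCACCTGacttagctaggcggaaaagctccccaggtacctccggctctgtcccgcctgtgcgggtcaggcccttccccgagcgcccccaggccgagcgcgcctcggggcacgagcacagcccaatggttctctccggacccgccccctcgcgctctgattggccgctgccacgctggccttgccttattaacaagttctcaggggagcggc

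The window held 1 E-box, and 66.2% of all 32851 RefSeq promoter windows of that length held at least 1. TAATTG, an Msx-type homeodomain motif searched on both strands, was not found in this window and occurred in 7.17% of all windows. The GC content of the window was 68%. The windows of *Msx2* and *Meox2* also held 1 E-box each, that of *Pitx3* held 2, and none of them held TAATTG. Whether these motifs bear on the change of any factor was not tested.

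*Lbx1* (ENSMUSG00000025216.9, chr19:45232684-45235812, minus strand) gave no call. It had 41, 46 and 43 counts at D0 and 45, 23 and 35 counts at D5, or 1.09, 1.09 and 1.07 CPM against 1.79, 0.933 and 1.41 CPM. The D0 libraries were nearly equal, whereas the D5 libraries lay on both sides of them. The means were 1.08 ± 0.0153 CPM and 1.38 ± 0.430 CPM, a log2 fold change of 0.34 with a 95% interval from −0.11 to 0.80 (standard error 0.22, adjusted p = 0.148 by edgeR's quasi-likelihood test). Without D5 replicate 2 the value was 0.56 (adjusted p = 0.0246 by edgeR's test), and unscaled counts gave −0.33 and ERCC scaling −0.34, neither of them called. The paralog *Lbx2* had at most 5 counts in a library.

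*Pitx3* (ENSMUSG00000025229.15, chr19:46135685-46148326, minus strand), which is known to be induced as myoblasts differentiate, was at a low level. It had 7, 5 and 6 counts at D0 and 10, 8 and 14 counts at D5, or 0.187, 0.119 and 0.149 CPM against 0.398, 0.324 and 0.562 CPM. Every D5 library was above every D0 library, but the counts were too few for the filter. The summed counts of 18 and 32 correspond to a ratio of 2.85 after scaling, with an exact 95% interval of 1.55 to 5.40 that covers counting error only. When the filter was left out, the log2 fold change of *Pitx3* came to 1.43, with a standard error of 0.46 (adjusted p = 0.0042 by edgeR's test). *Pitx1* (ENSMUSG00000021506.7, chr13:55825051-55836192, minus strand), the hindlimb gene of the family, had 0 counts in all libraries.

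*Meox1* (ENSMUSG00000001493.9, chr11:101877510-101894374, minus strand) was near the limit of detection. It had 8, 16 and 8 counts at D0 and 1, 3 and 5 counts at D5, or 0.213, 0.380 and 0.199 CPM against 0.0398, 0.122 and 0.201 CPM. The highest D5 library reached the lowest D0 library, so the groups overlapped. The summed counts of 32 and 9 correspond to a ratio of 0.451 after scaling (exact 95% interval 0.189 to 0.967, counting error only), and without the filter the log2 fold change came to −1.17, with a standard error of 0.57 (adjusted p = 0.0713 by edgeR's test).

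*Meox2* (ENSMUSG00000036144.6, chr12:37108540-37179534, plus strand) and *Pitx1* were not detected. A count of 0 allows up to 3 counts, which corresponds to 0.0713 to 0.0800 CPM in the D0 libraries and to 0.119 to 0.122 CPM in the D5 libraries, for counting error only. This limit is for a single library, and at D5 it lay about at the mean level of *Meox1* (0.121 CPM). *Meox1* had 1, 3 and 5 counts there, whereas *Meox2* had 0 counts in each of the D5 libraries.

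Per length, the order at D0 was *Tbx15* (18.2 ± 0.967 TPM), *Tbx3* (9.37 ± 0.344 TPM), *Msx1* (6.50 ± 0.282 TPM), *Msx2* (2.64 ± 0.0999 TPM), *Lbx1* (1.51 ± 0.0152 TPM), *Meox1* (0.410 ± 0.158 TPM) and *Pitx3* (0.343 ± 0.0730 TPM). Only the neighbours *Meox1* and *Pitx3* had ranges that overlapped, beside *Pitx1* and *Meox2* at 0. At D5 the order was *Tbx15* (219 ± 6.73 TPM), *Tbx3* (10.1 ± 0.261 TPM), *Msx1* (4.21 ± 0.276 TPM), *Lbx1* (1.73 ± 0.571 TPM), *Pitx3* (0.871 ± 0.247 TPM), *Msx2* (0.684 ± 0.127 TPM) and *Meox1* (0.167 ± 0.111 TPM), and there *Pitx3* and *Msx2* overlapped. *Msx2* thus moved from the fourth place to the sixth, while *Tbx15*, *Tbx3* and *Msx1* held the first places in both groups.

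**Figure D3:**
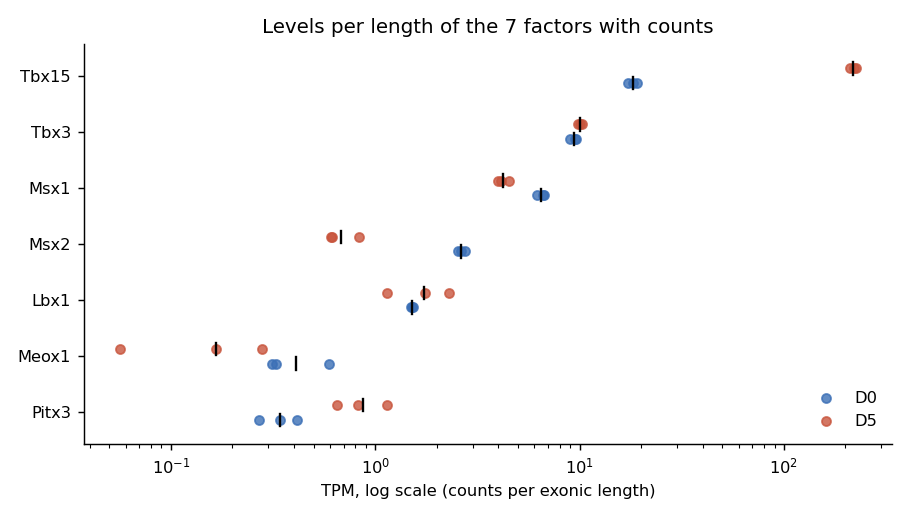
TPM per exonic length of the 7 factors that had counts, on a log axis, with a point for each library at D0 (blue) and D5 (red) and a black line at each group's mean (n = 3 cultures). *Tbx15* is the highest factor in both groups, and the D5 libraries of *Lbx1* and *Meox1* spread widest.

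Beside *Tbx3* and *Tbx15*, 15 other T-box genes were listed and 7 of them were tested. Of these, 4 rose (*Tbx1*, *Tbx4*, *Tbx18* and *Mga*), 2 fell (*Tbx2* and *Tbr1*) and *Tbx6* was not called, with a median log2 fold change of 0.68, beside 0.26 for the 5 factors tested and 0.0022 for all genes tested. Another 7 of the 15 had no more than 3 counts in any library. Unscaled counts gave 2 higher and 3 lower, and ERCC scaling gave 2 higher and 2 lower.

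**Figure D4:**
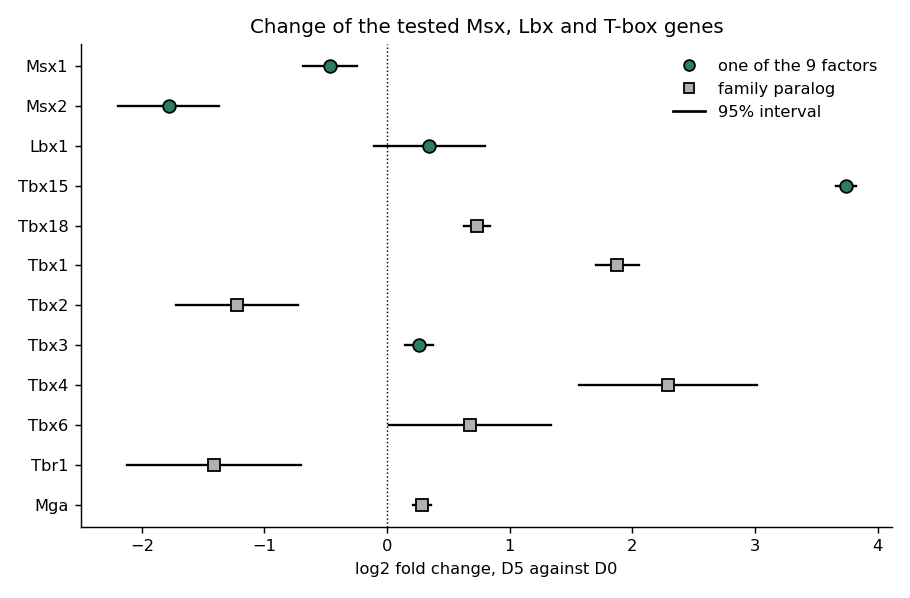
Log2 fold change at D5 against D0 of the 5 tested factors (green circles) and 7 tested T-box paralogs (grey squares), with 95% intervals from edgeR's quasi-likelihood fit of 3 cultures a group and a dotted line at 0. *Tbx15* lies at 3.74, apart from every other gene shown, and the intervals of *Msx1* and *Msx2* do not meet.

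A list of 29 other homeobox genes of limb and muscle held 20 that were tested, of which 7 rose, 10 fell and 3 were not called, with a median log2 fold change of −0.24. *Prrx1*, a factor of limb mesenchyme, fell from 261 ± 1.99 to 189 ± 1.55 CPM (log2 fold change −0.46). The TALE-class genes, whose proteins bind DNA together with other homeodomain or myogenic factors, diverged. *Meis2* fell from 142 ± 4.42 to 39.3 ± 1.49 CPM (log2 fold change −1.85), *Tgif1* fell from 85.4 ± 1.96 to 60.1 ± 1.35 CPM (log2 fold change −0.51), and *Pbx2* rose from 29.7 ± 1.79 to 45.7 ± 1.64 CPM (log2 fold change 0.62, but −0.06 without scaling). Unscaled, 5 of the 20 were higher and 14 lower, and under ERCC scaling 4 were higher and 6 lower, with no call for *Prrx1*, *Tgif1* and *Pbx2*.

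Of 18 genes known to act upstream of, beside or downstream of these factors in muscle, 17 were tested: 6 rose and 11 fell, with a median log2 fold change of −0.71 (4 higher and 13 lower unscaled, 4 and 9 under ERCC scaling). The cell cycle inhibitor *Cdkn1a* rose from 107 ± 3.29 to 2005 ± 54.3 CPM (log2 fold change 4.22) and *Myog*, which drives terminal differentiation, rose from 2.76 ± 0.367 to 515 ± 3.24 CPM (log2 fold change 7.54). *Myod1*, the muscle determination factor whose gene Msx1 is known to repress, fell from 207 ± 6.24 to 126 ± 3.95 CPM (log2 fold change −0.71). The BMP receptors *Bmpr1a*, with a log2 fold change of 0.41, and *Bmpr2*, with 0.11, were called higher at D5, and both turned negative unscaled (−0.27 and −0.57) and under ERCC scaling (−0.15 and −0.46). *Pax3*, the factor that acts upstream of Lbx1 in limb muscle precursors, had at most 1 count in a library and was not tested.

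The directions moved with the scaling. Unscaled, 76.6% of all calls were lower at D5, and under ERCC scaling 67.4%, against 49.2% with TMM. *Tbx15* was called higher and *Msx2* lower at D5 under each of the 6 scalings tried.

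**Figure D5:**
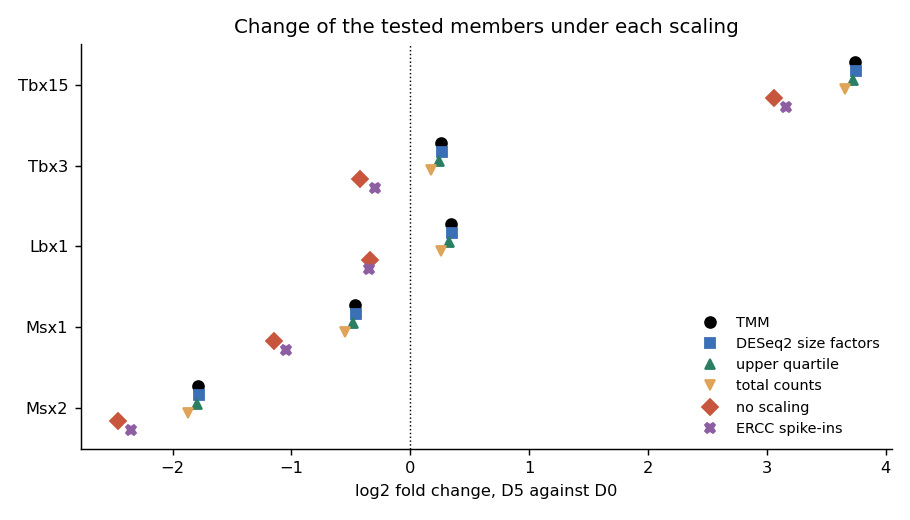
Log2 fold change at D5 against D0 of the 5 tested factors under 6 scalings of the libraries, with a dotted line at 0. *Tbx15*, *Msx1* and *Msx2* keep their sign under all 6, and *Tbx3* and *Lbx1* lie below 0 unscaled and under ERCC scaling.

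Genes were also ranked by how closely their log2 CPM, centred on its mean, followed that of a factor over the 6 libraries, among the 11887 genes that averaged 100 counts or more in a group. The nearest to *Tbx15* was *Il33*, a cytokine gene, which went from 0.391 ± 0.0160 to 5.10 ± 0.0450 CPM, at a Euclidean distance of 0.111. The nearest to *Tbx3* was *Rnf19b*, a ubiquitin ligase gene, which went from 62.5 ± 0.650 to 74.7 ± 2.49 CPM, at a distance of 0.0437, and the nearest to *Msx1* was *Lrif1*, which went from 40.2 ± 1.11 to 28.7 ± 1.29 CPM, at a distance of 0.0489. Within 2 times the smallest distance, and counting the nearest gene, there were 16 genes for *Tbx15*, 44 for *Tbx3* and 24 for *Msx1*. The nearest gene was thus not the only gene near each factor in pattern.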

How the data were processed

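Total RNA of 3 C2C12 cultures at D0 and 3 at D5 was sequenced, and the authors deposited the counts of reads per gene for each culture, without normalization. The submitters' processing notes name featureCounts, DESeq2 1.6.3 and the build mm10 (GRCm38). The labels name Tophat2 and NGS-QC-Toolkit whereas the paper's methods name HISAT2 and FastQC, and which of them made these counts, the strand setting and how multi-mapping reads were handled are not given in the sources used here. Without a known strand setting, reads of overlapping and antisense genes cannot be told apart. The cultures are separate samples by the labels, which do not say how the cultures were set up, so the p-values measure the spread between these samples, which may be technical.

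The 9 genes, the lists of related genes and markers, and the tests were chosen with earlier results of these data known. The 92 ERCC spike-in rows, which took from 0.720% to 2.09% of the counts, and 1 unnamed row holding the column total entered neither library sizes nor tests. Replicates differed by more than sampling noise (chi-square divided by degrees of freedom, 2.16 to 3.45 per pair), so each library counted as 1 sample. From the deposited counts, edgeR 4.0.16 (R 4.3.3) gave TMM factors, CPM, log2 fold changes and quasi-likelihood p-values after filterByExpr, with a threshold of 0.05 on the adjusted p. Standard errors were obtained as |log2 fold change| over the root of F. TPM used exonic lengths of GENCODE M21 on GRCm38, which matched 99.9% of the gene IDs. Genes at or under 3 counts in a library were treated as not detected there. Named genes are the 9 factors, their tested paralogs, the 5 genes of highest mean CPM in the homeobox and related lists, and the gene nearest in pattern to each factor averaging 100 counts or more in a group; genes outside this rule were chosen after their values were seen. Alternatives were DESeq2 1.42.0, other scalings, other filters, each library left out and the replicate number as a block. Simulated counts were used to test the scripts beforehand. The RT-qPCR and protein data were not analysed here. Some genes of these lists and some sequences are not reported here.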

Additional observations from a re-analysis of the deposited data

How the results depend on the processing

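The 2 higher and 2 lower factors kept their direction and their calls with DESeq2, upper-quartile normalization, total counts per library and at least 10 counts in every library, and in each fit without a library. Over 66 pairs of a result and an alternative that kept all libraries, 57 kept the direction and the side of the threshold or, for counts, stayed within 1.5 times. Without scaling 1 factor was higher, with *Tbx3* at −0.42 and *Lbx1* at −0.33. Under ERCC scaling 1 factor was higher and 1 lower, 5560 genes were called, *Tbx3* was at −0.30, *Lbx1* at −0.34 and *Msx1* at −1.04 without a call. Unscaled counts keep the greater depth of the D0 libraries. The ERCC shares ranged from 0.720% to 2.09% within D5, and the cause of the shifts under ERCC scaling was not tested. Without a filter *Pitx3* joined the higher factors. Over the fits that left out a library, from 2 to 3 factors were higher (3 without D5 replicate 2, which had the lowest *Lbx1* level at D5), 2 to 2 were lower, and from 13151 to 13221 genes were called. The log2 fold change ranged from 0.23 to 0.29 for *Tbx3*, 3.71 to 3.76 for *Tbx15*, 0.11 to 0.56 for *Lbx1*, −0.50 to −0.43 for *Msx1* and −1.96 to −1.70 for *Msx2*, and the log2 ratio of mean CPM from 1.25 to 1.68 for *Pitx3* and −1.71 to −0.71 for *Meox1*. With the replicate number as a block, 2 factors were higher and 2 lower and 13558 genes were called. Same-numbered libraries had deviations correlated at 0.027, 0.10 and 0.047, each D0 library correlating best with its own number, but 2 of the 3 values were under 0.1 and the labels give no shared origin, so the numbers were not taken to pair the cultures. Depth limits *Pitx3*, *Meox1*, *Pitx1* and *Meox2*, whose counts were at or near the limit of detection.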

Other observations

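Among the other homeobox genes, some named here after their values were seen had changes as large as those of the 9 factors. Of 5 distal-less genes listed, known from limb and craniofacial patterning, 3 were lower at D5: *Dlx1* fell from 4.93 ± 0.520 to 0.669 ± 0.189 CPM (log2 fold change −2.87), *Dlx2* from 6.94 ± 0.401 to 1.61 ± 0.209 CPM (−2.11) and *Dlx3* from 15.0 ± 0.563 to 2.49 ± 0.454 CPM (−2.59), while *Dlx5* and *Dlx6* had 0 counts in every library. *Lhx2* fell from 1.42 ± 0.0585 to 0.187 ± 0.152 CPM (log2 fold change −2.89), and its relative *Lhx9* rose from 0.251 ± 0.0429 to 2.34 ± 0.289 CPM (log2 fold change 3.21). *Irx3* rose from 2.98 ± 0.459 to 47.2 ± 2.15 CPM (log2 fold change 3.98) and *Irx5* from 8.02 ± 0.0471 to 19.4 ± 0.875 CPM (log2 fold change 1.27, not called under ERCC scaling). *Mkx*, a tendon factor, rose from 2, 4 and 11 counts to 68, 61 and 63 counts.

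In the BMP pathway, to which the Msx genes respond in other settings, ligand and target genes went opposite ways, also noted after their values were seen. *Bmp4* had 7, 1 and 14 counts at D0 and 1460, 1467 and 1464 counts at D5, and *Bmp2* had 0 counts in every D0 library and 28, 31 and 27 counts at D5. The target genes *Id1* (log2 fold change −1.10), *Id2* (−2.47) and *Id3* (−2.09), which encode inhibitors of myogenic factors, fell, as did *Smad1* (−0.35) and *Smad5* (−0.54), which carry the signal. All of these were called by edgeR's quasi-likelihood test and kept their sign under the 5 other scalings, but *Smad1* and *Smad5* were not called under ERCC scaling.

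Of the markers of cell types that are not skeletal muscle, the 1 smooth muscle and pericyte marker tested, *Cspg4*, rose (17.9 to 19.9 CPM and 44.7 to 46.1 CPM over the list), though not with a call under ERCC scaling. The bone and cartilage markers went from 158 to 166 CPM to 111 to 112 CPM, with *Runx2* lower and *Sox9* called higher at a log2 fold change of 0.42, which was −0.26 unscaled and −0.15 under ERCC scaling. The endothelial (3.31 to 3.59 CPM and 0.517 to 0.884 CPM) and neural and Schwann markers (218 to 227 CPM and 4.74 to 5.55 CPM) had 2 of 2 tested genes lower each, and the blood markers, with 1 tested gene, which was lower, summed to 3.05 to 3.31 CPM and 2.05 to 3.12 CPM, with *Ptprc* at no more than 1 count. Of the 6 myoblast markers, 2 rose and 4 fell, against 1 and 4 unscaled. Under ERCC scaling 3 fell, and neither *Itga7* (log2 fold change 0.52) nor *Des* (0.16), the 2 that rose, was called.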
